A study of Arabidopsis thaliana with 12 samples.

Results

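The 9 genes described here sit at the start and the end of the path of sucrose through a plant cell. They are a cell wall invertase (*CWINV1*), both vacuolar invertases (*VI1* and *VI2*), a sucrose synthase (*SUS3*), 3 sucrose phosphate synthases (*SPS1F*, *SPS3F* and *SPS4F*) and 2 hexokinases (*HXK1* and *HXK2*). They were matched by locus, and all 9 are among the 22953 genes of the deposited table and among the 18506 with enough counts to be tested. RNA came from the above-ground tissue of *Arabidopsis thaliana* Columbia-0 seedlings in 4 groups of 3 replicates. WT is the wild type on 1/2 MS media (Murashige and Skoog salts at reduced strength) at 5 days, and WT-Suc is the same on media with 1% sucrose at 5 days. The *tmt2-S* group is the *TMT2* knockout on media without sucrose at 7 days, and *tmt2-L-Suc* is the knockout on media with 1% sucrose at 5 days. These ages are those of the labels, and the paper gives other day numbers, counted from germination. It states that *tmt2-S*, which grew more slowly, was collected later so that its growth stage was similar. TMT2 is a transporter that carries sugars into the vacuole. The knockout is 1 T-DNA line, and *tmt2-S* are those of its seedlings that form no true leaves, so this group was chosen by its growth. It is also the only group of its age, so genotype, growth type and age cannot be told apart where *tmt2-S* is set against the WT or WT-Suc (sucrose too in the latter), and sucrose, growth type and age cannot where it is set against *tmt2-L-Suc*, which has the same genotype. The paper uses *tmt2-L* for knockout seedlings that grow normally, so *tmt2-L-Suc* may have been chosen by its growth as well.

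Invertases split sucrose into glucose and fructose, in the cell wall space or in the vacuole, while sucrose synthase splits it in the cytosol to UDP-glucose and fructose in a reversible step. Hexokinases add a phosphate to the released hexoses, and HXK1 is also known as a glucose sensor. Sucrose phosphate synthase runs the other way and joins UDP-glucose to fructose 6-phosphate on the way to sucrose. In young seedlings these enzymes stand between the supply of sugar from cotyledons or media and its use in growing tissue.

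The promoters of 6 of the genes are shown, the first 3 because their transcripts were higher in *tmt2-S* than in the WT and the others because they hold a sequence motif that was searched for. Each is the 250 bases before the annotated start of the gene in TAIR10.1 (RefSeq), written 5′ to 3′ on the strand of the gene, with motif matches in capitals. The windows are chr3:4535915-4536164 on the minus strand for *CWINV1*, chr1:23199362-23199611 on the plus strand for *VI1* and chr4:994476-994725 on the plus strand for *SUS3*. They are chr4:6313664-6313913 on the plus strand for *SPS4F*, chr4:14355202-14355451 on the minus strand for *HXK1* and chr1:1395954-1396203 on the minus strand for *SPS3F*.
CWINV1: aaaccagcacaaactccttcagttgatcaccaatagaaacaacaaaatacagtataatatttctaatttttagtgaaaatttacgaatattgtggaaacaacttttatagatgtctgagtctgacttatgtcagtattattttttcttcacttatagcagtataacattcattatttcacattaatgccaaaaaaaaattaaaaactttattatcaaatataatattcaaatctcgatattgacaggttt
VI1: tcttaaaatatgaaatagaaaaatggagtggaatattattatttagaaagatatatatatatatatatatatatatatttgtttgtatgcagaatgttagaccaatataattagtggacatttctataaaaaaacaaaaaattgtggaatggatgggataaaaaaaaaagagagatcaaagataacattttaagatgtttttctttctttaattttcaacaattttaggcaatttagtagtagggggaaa
SUS3: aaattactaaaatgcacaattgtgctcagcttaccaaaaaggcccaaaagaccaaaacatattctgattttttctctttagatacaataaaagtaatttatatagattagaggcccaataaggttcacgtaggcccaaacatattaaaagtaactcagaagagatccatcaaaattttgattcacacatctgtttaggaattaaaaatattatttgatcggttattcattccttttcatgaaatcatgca
SPS4F: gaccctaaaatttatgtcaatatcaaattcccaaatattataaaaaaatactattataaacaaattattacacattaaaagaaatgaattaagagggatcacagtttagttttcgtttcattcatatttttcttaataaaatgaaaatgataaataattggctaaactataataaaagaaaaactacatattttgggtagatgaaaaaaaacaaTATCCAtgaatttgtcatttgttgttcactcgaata
HXK1: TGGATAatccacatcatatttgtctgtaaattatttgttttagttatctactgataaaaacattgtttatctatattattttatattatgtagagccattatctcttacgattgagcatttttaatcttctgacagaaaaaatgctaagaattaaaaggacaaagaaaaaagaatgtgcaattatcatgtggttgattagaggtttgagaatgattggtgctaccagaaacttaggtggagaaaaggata
SPS3F: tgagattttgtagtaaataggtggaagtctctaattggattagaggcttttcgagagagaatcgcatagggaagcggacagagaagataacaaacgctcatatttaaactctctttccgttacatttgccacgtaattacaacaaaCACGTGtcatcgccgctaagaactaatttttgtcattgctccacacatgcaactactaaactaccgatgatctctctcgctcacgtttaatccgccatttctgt

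Both strands were searched for CACGTG (the G-box, a core bound by bZIP and bHLH factors), TATCCA (an element known from sugar-responsive amylase promoters of rice) and ACTCAT (an element known from the proline dehydrogenase promoter of Arabidopsis). The G-box was in 1 of the 9 promoters, that of *SPS3F*, from 104 to 99 bases before the start. It was in 6.49% of the 27443 promoters of the same length. TATCCA was in 2 of the 9, in *SPS4F* from 36 to 31 bases before the start and in *HXK1*, on the other strand, from 250 to 245 bases before it, where the capitals read TGGATA. It was in 13.6% of all promoters. ACTCAT was in 0 of the 9 and in 12.3% of all promoters. The 3 promoters of *CWINV1*, *VI1* and *SUS3* held none of these letters in this window. A match is a description of the sequence and was not tested as a site.

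The total expected count per library (the number of fragments that RSEM assigned to genes) lay between 20187961 and 21370053. Transcript levels are given as FPKM, which is per transcript length and is scaled to the number of mapped fragments, so levels of different genes can be set side by side. The *TMT2* transcript is no check of the labels, because the insertions lie in its last exon and transcript before them can still be counted. Its FPKM was 21.8 to 25.4 in *tmt2-S* and 7.04 to 9.36 in the WT. Transcripts of 5 seed storage genes summed to 317 FPKM in WT-Suc replicate 2 and to at most 10.08 FPKM in the other 11 libraries. Those of 6 leaf marker genes summed to 65923 to 91407 FPKM in *tmt2-S* and to 101257 to 127292 FPKM in the other groups, and 7 root markers to at most 11.5 FPKM in every library. The part of these differences in the results was not tested. Nothing in the labels says that replicates came from separate cultures, so p-values measure only the spread between these samples.

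*CWINV1* (AT3G13790, chr3:4532762-4535914, minus strand) encodes the cell wall invertase that splits sucrose outside the cell. Its FPKM was 11.2, 11.0 and 16.4 in WT replicates 1, 2 and 3, and 13.8, 5.27 and 4.65 in WT-Suc. Of the knockout groups, *tmt2-S* had 44.4, 131 and 66.0 and *tmt2-L-Suc* had 20.1, 19.7 and 23.4. Every *tmt2-S* library was above every library of the other groups, and every *tmt2-L-Suc* library was above every library of the WT and WT-Suc. The *tmt2-S* libraries were also far apart from each other, replicate 2 being the highest. Against the WT, *CWINV1* rose in *tmt2-S* with a log2 fold change (log2FC) of 2.68 (standard error 0.43, adjusted p = 0.000367, edgeR quasi-likelihood test), a 6.42-fold rise.

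*VI1* (AT1G62660, chr1:23199612-23203808, plus strand) encodes one of the vacuolar acid invertases. Its FPKM was 17.1, 11.5 and 16.4 in the WT and 14.1, 7.21 and 5.42 in WT-Suc. In *tmt2-S* it was 39.7, 108 and 69.1, against 9.22, 10.4 and 9.17 in *tmt2-L-Suc*. The *tmt2-S* libraries again lay above all others, replicate 2 again the highest, while *tmt2-L-Suc* lay below the WT and within the range of WT-Suc. The log2FC of *tmt2-S*/WT was 2.32 (standard error 0.40, edgeR adjusted p = 0.000544), a 5.00-fold rise.

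*VI2* (AT1G12240, chr1:4153641-4157653, plus strand), the other vacuolar invertase, had the highest level of the acid invertases in the WT. Its FPKM was 62.9, 53.2 and 69.5 in the WT and 54.3, 29.3 and 21.5 in WT-Suc. In *tmt2-S* it was 71.1, 129 and 119, against 32.1, 61.4 and 36.2 in *tmt2-L-Suc*. The *tmt2-S* libraries were above the WT libraries without overlap, but replicate 1 only just. The log2FC of *tmt2-S*/WT was 0.75 (standard error 0.34) and did not pass (edgeR adjusted p = 0.0932). Without *tmt2-S* replicate 1 it was 0.97 with an adjusted p of 0.0393.

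The make-up of the acid invertase transcripts differed between groups. *CWINV1* held 12.3 to 16.1% of the summed FPKM of *CWINV1*, *VI1* and *VI2* in the WT and 12.6 to 16.8% in WT-Suc. It held 26.0 to 35.5% in *tmt2-S* and 21.5 to 34.0% in *tmt2-L-Suc*, above every WT and WT-Suc library in both. *VI1* held 25.6 to 29.4% in *tmt2-S*, against 15.2 to 18.7% in the WT, 17.1 to 17.3% in WT-Suc and 11.4 to 15.0% in *tmt2-L-Suc*. *VI2* held 66.0 to 70.3% in the WT and WT-Suc and 35.1 to 46.7% in *tmt2-S*. In *tmt2-L-Suc* it held 52.2, 67.1 and 52.7%, replicate 2 being within the range of the WT and WT-Suc. The summed FPKM was 75.6 to 102 in the WT, 31.5 to 82.2 in WT-Suc, 155 to 368 in *tmt2-S* and 61.4 to 91.5 in *tmt2-L-Suc*. These shares are a description and were not tested.

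**Figure D1:**
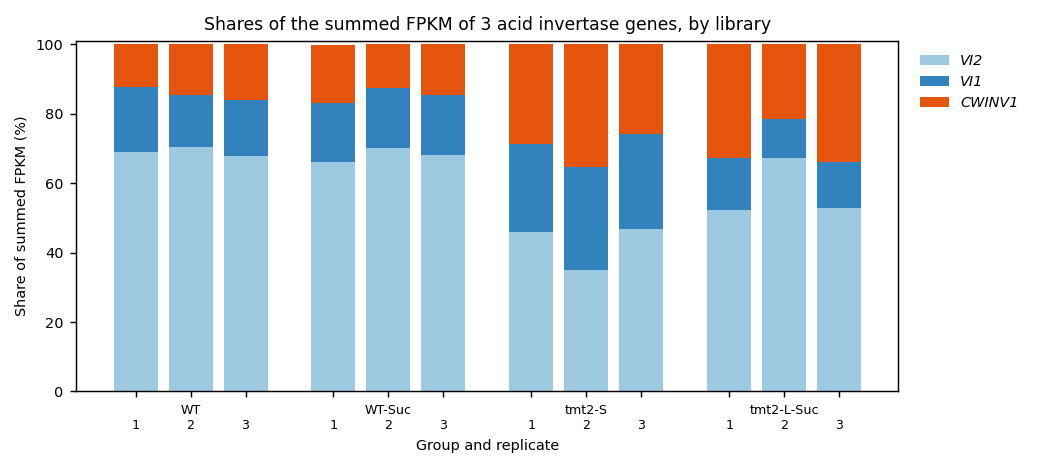
Shares (%) of the summed FPKM of the acid invertase genes *VI2*, *VI1* and *CWINV1* in each of the 12 libraries, 1 bar per library and replicate. *CWINV1* holds at most 16.8% in every WT and WT-Suc library and at least 21.5% in every *tmt2* library, and *VI1* is highest in *tmt2-S*.

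*SUS3* (AT4G02280, chr4:994726-998991, plus strand) encodes a sucrose synthase that is best known from maturing seeds. Its level was low, with expected counts between 17 and 213. Its FPKM was 1.06, 0.50 and 1.32 in the WT and 0.69, 0.29 and 0.80 in WT-Suc. In *tmt2-S* it was 2.30, 3.66 and 2.24, against 0.71, 0.46 and 0.66 in *tmt2-L-Suc*. The *tmt2-S* libraries lay above all 9 others, which overlapped with each other. The log2FC of *tmt2-S*/WT was 1.48 (standard error 0.36, edgeR adjusted p = 0.00563), a 2.79-fold rise. Seed storage transcripts, whose relation to *SUS3* was not tested, were lowest in *tmt2-S*, the oldest group. They summed there to 0.10 to 0.19 FPKM with 3 or 4 of the 5 genes at 0.

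The sucrose phosphate synthases take part in sucrose synthesis. *SPS1F* (AT5G20280, chr5:6844712-6850237, minus strand) and *SPS4F* (AT4G10120, chr4:6313914-6320094, plus strand) are known as the main forms of leaves. The FPKM of *SPS4F* was 51.5, 27.4 and 21.6 in the WT and 27.1, 11.5 and 11.4 in WT-Suc. In *tmt2-S* it was 57.0, 63.2 and 37.0, against 11.0, 26.1 and 15.7 in *tmt2-L-Suc*. The *tmt2-S* libraries lay above both sucrose-fed groups and overlapped with the WT, whose replicate 1 was high. The log2FC of *tmt2-S*/WT was 0.62 (standard error 0.44, edgeR adjusted p = 0.285). *SPS4F* shares 167 bases with AT4G10130 on the other strand, which stood at 2.48 to 6.57 FPKM, and the use of strand in counting is not given in the sources used here.

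The FPKM of *SPS1F* was 14.3, 11.6 and 10.7 in the WT. With sucrose the WT had 16.7, 10.5 and 8.95. The values were 13.7, 21.3 and 13.3 in *tmt2-S* against 11.6, 13.5 and 12.1 in *tmt2-L-Suc*. All 4 groups overlapped, and the log2FC of *tmt2-S*/WT was 0.35 (standard error 0.23, edgeR adjusted p = 0.241). *SPS3F* (AT1G04920, chr1:1391434-1395953, minus strand) was near the limit of measurement, with expected counts between 5 and 46. Its FPKM was 0.29, 0.28 and 0.07 in the WT, where sucrose gave 0.38, 0.21 and 0.22. The values were 0.29, 0.26 and 0.16 in *tmt2-S* against 0.65, 0.43 and 0.52 in *tmt2-L-Suc*. The *tmt2-L-Suc* libraries lay above all others. *SPS4F* held 66.8 to 78.0% of the summed FPKM of the 3 genes in the WT and 73.4 to 80.3% in *tmt2-S*, and 47.3 to 65.3% in the sucrose-fed groups.

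*HXK1* (AT4G29130, chr4:14352037-14355201, minus strand) encodes the hexokinase known as a glucose sensor. Its FPKM was 13.2, 10.03 and 9.62 in the WT and 11.2, 8.26 and 7.72 in WT-Suc. In *tmt2-S* it was 12.6, 12.2 and 6.65, against 13.8, 13.7 and 15.7 in *tmt2-L-Suc*. The *tmt2-L-Suc* libraries lay above all others and the other 3 groups overlapped. The log2FC of *tmt2-S*/WT was -0.11 (standard error 0.22, edgeR adjusted p = 0.724). *HXK1* shares 23 bases with AT4G29120 (6.49 to 16.8 FPKM) and 193 bases with the antisense RNA AT4G08055, and without strand their reads cannot be told apart there.

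*HXK2* (AT2G19860, chr2:8570607-8574067, plus strand) encodes a further hexokinase that phosphorylates glucose. Its FPKM was 5.84, 5.30 and 4.81 in the WT, where sucrose gave 7.80, 4.64 and 4.61. The values were 4.53, 5.79 and 4.71 in *tmt2-S* against 5.56, 5.86 and 5.64 in *tmt2-L-Suc*. All groups overlapped, and in no comparison did its log2FC exceed 0.14 in size, with standard errors of 0.20 to 0.29. The level of *HXK1* was 1.41 to 2.78 times that of *HXK2* in every library.

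**Figure D2:**
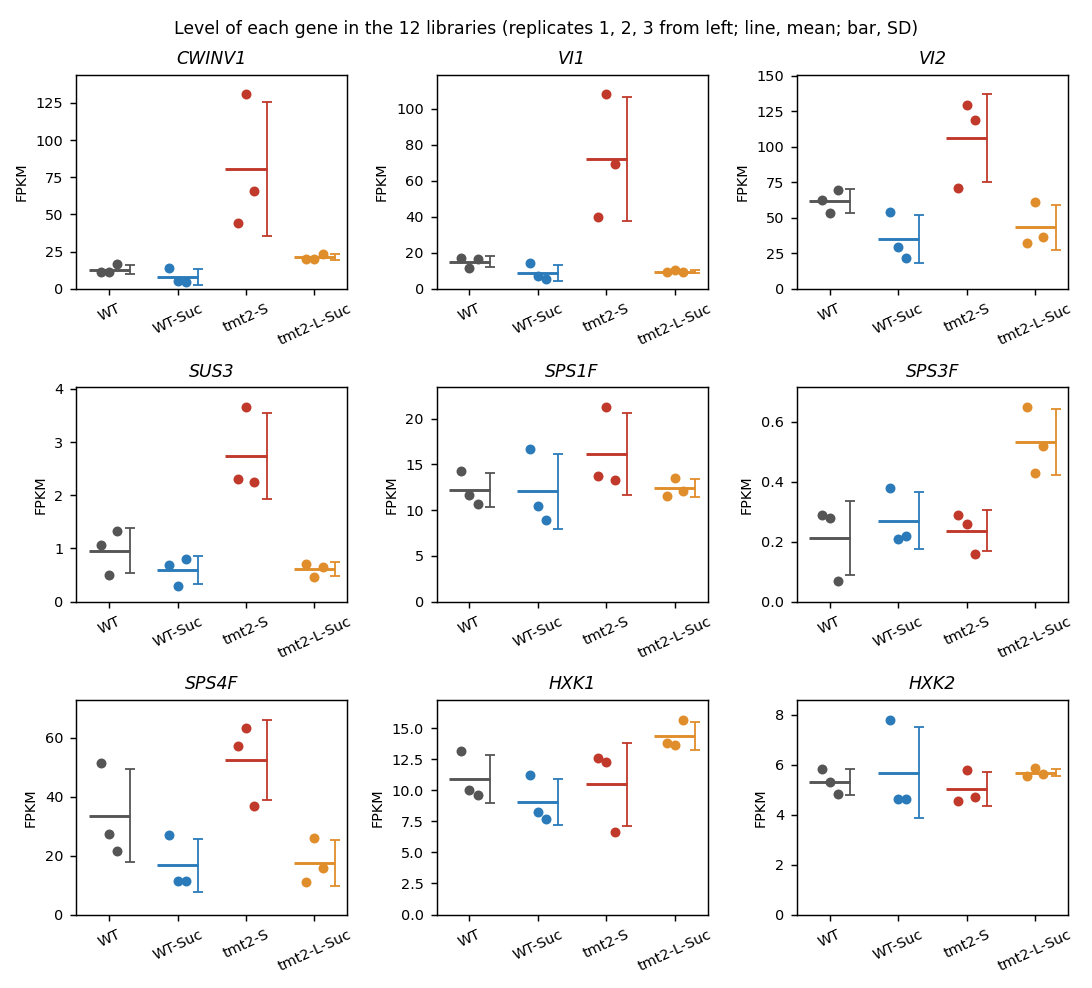
FPKM of the 9 genes in the 12 libraries, with 3 points per group (replicates 1, 2 and 3 from the left), the mean as a line and the SD as a bar. The *tmt2-S* points lie above all others for *CWINV1*, *VI1*, *VI2* and *SUS3*, and the *tmt2-L-Suc* points for *SPS3F* and *HXK1*.

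The comparison of *tmt2-S*/WT, both without sucrose, asks which transcripts differ in knockout seedlings that form no true leaves. Genes were called at an adjusted p ≤ 0.05. Of the 9 genes, 3 were higher in *tmt2-S* (*CWINV1*, *VI1* and *SUS3*) and 0 were lower, which is 33.3% of them. Of all 18506 genes tested, 43.3% were called, 20.7% as higher in *tmt2-S*. The called share of the 9 lay below that of all genes, and the share called higher lay above it. With 9 genes, neither gap is read as a result. Groups did not overlap for 4 of the 9 (*VI2* in addition) and for 50.0% of all genes. The median log2FC of the 9 was 0.62 and that of all genes tested -0.01. The 9 were chosen with earlier results of these data known, so their medians are only a description, here and below. Without replicate 1 of all groups, *VI2*, *SPS4F* (log2FC 1.10, adjusted p = 0.0257) and *SPS1F* (log2FC 0.62, adjusted p = 0.0451) were called as well, which makes 6, where 43.1% of all genes tested were called.

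The contrast *tmt2-S*/*tmt2-L-Suc* sets the knockout without sucrose against the knockout with it. Here 5 of the 9 genes (55.6%) were higher in *tmt2-S* and 0 lower, where 51.5% of all genes tested were called, 25.7% as higher in *tmt2-S*. *VI1* differed by 3.07 on the log2 scale (edgeR adjusted p = 6.86e-05, standard error 0.41), an 8.42-fold difference. *SUS3* differed by 2.24 (adjusted p = 0.000356), *CWINV1* by 2.02 (adjusted p = 0.00159), *SPS4F* by 1.65 (adjusted p = 0.00856) and *VI2* by 1.35 (adjusted p = 0.00567). The call of *VI2* was lost without replicate 3 of all groups (adjusted p = 0.0633). *SPS3F* was on the other side, at -1.08 on the log2 scale (adjusted p = 0.0549, standard error 0.44). It passed as lower in *tmt2-S* with DESeq2 (adjusted p = 0.0487), in a fit of these groups alone (adjusted p = 0.0245) and without WT replicate 3 (adjusted p = 0.0168). *SPS1F*, *HXK1* and *HXK2* had 0.44, -0.39 and -0.12 and did not pass. The median of the 9 was 1.35, against -0.01 over all genes tested and -0.07 over the 33 further pathway genes described below. This comparison and that of *tmt2-S*/WT share the *tmt2-S* libraries.

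The comparison of WT-Suc/WT gives the effect of 1% sucrose at the same age and genotype. With edgeR, 0 of the 9 genes passed, and 3 had an unadjusted p below 0.05 (*VI2*, *SPS4F* and *VI1*). DESeq2 also gave 0 calls. Of all genes tested, 1.47% passed in edgeR and 6.27% in DESeq2. The acid invertases had log2FC of -0.80 (*CWINV1*), -0.92 (*VI2*) and -0.88 (*VI1*), with standard errors of 0.34 to 0.42 and adjusted p from 0.172 to 0.321. *SPS4F* had -1.14 (standard error 0.45, adjusted p = 0.191) and *SUS3* -0.76 (standard error 0.39, adjusted p = 0.303). The median of the 9 was -0.76, against 0.02 over all genes tested and -0.26 over the 33 further pathway genes described below. WT-Suc replicate 1 was the highest of its group for 8 of the 9 genes, all but *SUS3*. Without it, 2 genes were lower in WT-Suc, *CWINV1* with a log2FC of -1.45 (adjusted p = 0.0454) and *VI2* with -1.32 (adjusted p = 0.0402), and the share of all genes tested that passed was 7.68%. Without WT-Suc replicate 2 or 3 that share was at most 0.112%.

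**Figure D3:**
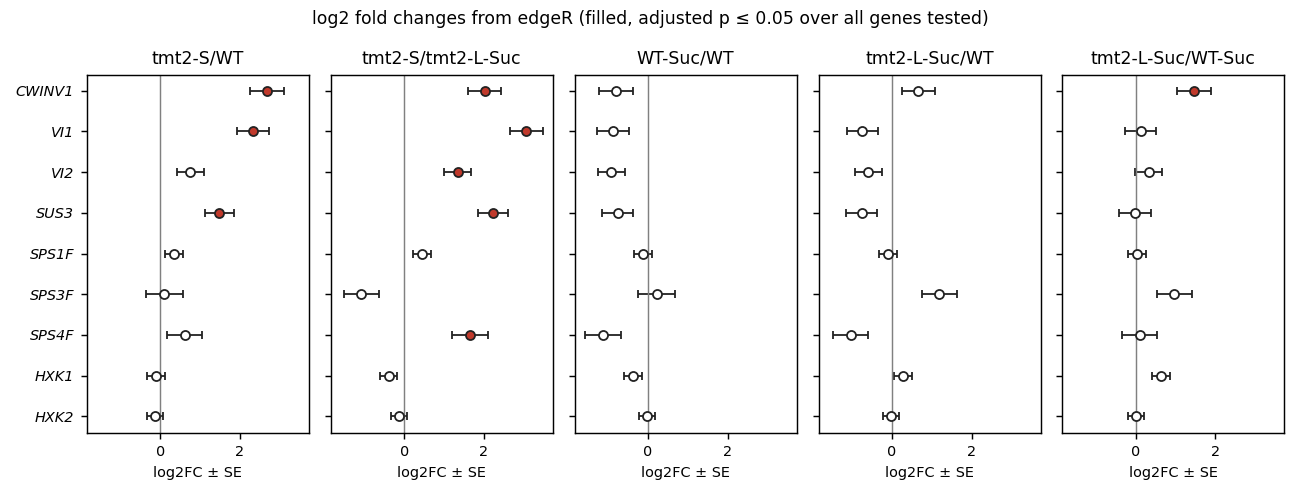
log2FC (points) with standard errors (bars) of the 9 genes in 5 comparisons, from the edgeR model of 12 libraries; filled points have an adjusted p ≤ 0.05 over all genes tested. The filled points number 3 in *tmt2-S*/WT, 5 in *tmt2-S*/*tmt2-L-Suc*, 0 in WT-Suc/WT and in *tmt2-L-Suc*/WT, and 1 in *tmt2-L-Suc*/WT-Suc.

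The contrast *tmt2-L-Suc*/WT-Suc sets the genotypes side by side at the same age and on the same media. A choice of *tmt2-L-Suc* seedlings by growth could not be told apart from genotype here. *CWINV1* was higher in *tmt2-L-Suc* by 1.46 on the log2 scale (edgeR adjusted p = 0.0294, standard error 0.42), a 2.75-fold difference. It was the 1 gene of the 9 that passed (11.1%), where 20.5% of all genes tested did. This call rested on all libraries of both groups except WT-Suc replicate 1. It was lost when any one of the other 5 was left out, with adjusted p from 0.0542 to 0.127. In those 5 fits the share of all genes tested that passed was 8.14 to 16.0%, lowest without WT-Suc replicate 2, followed by *tmt2-L-Suc* replicate 3 (9.11%). Without WT-Suc replicate 2, the library with seed storage transcripts, the log2FC was 1.24 (adjusted p = 0.127). *HXK1* was close to the threshold, at 0.64 on the log2 scale (adjusted p = 0.061, standard error 0.23), and passed with DESeq2 (log2FC 0.66, adjusted p = 0.0362). *SPS3F* had a log2FC of 0.96 (standard error 0.44, adjusted p = 0.131). *VI1*, *VI2*, *SPS1F*, *SPS4F*, *SUS3* and *HXK2* had log2FC between -0.01 and 0.32.

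Between *tmt2-L-Suc* and the WT without sucrose, 0 of the 9 genes passed in edgeR and 0 in DESeq2, where 11.7% of all genes tested passed in edgeR and 16.6% in DESeq2. *SPS3F* (log2FC 1.19, standard error 0.44) and *SPS4F* (log2FC -1.04, standard error 0.45) had an unadjusted p below 0.05, with adjusted p of 0.103 and 0.152. *CWINV1* had 0.66 (standard error 0.41, adjusted p = 0.327) and *VI1* -0.75 (standard error 0.39, adjusted p = 0.234). In an edgeR fit of these groups alone *CWINV1* (adjusted p = 0.0248) and *VI1* (adjusted p = 0.0336) passed, as did 15.3% of all genes tested. Groups did not overlap for 4 of the 9 genes (*CWINV1*, *SPS3F* and *HXK1* higher, *VI1* lower in *tmt2-L-Suc*) and for 36.4% of all genes.

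A further contrast (the interaction of genotype and sucrose) took the sucrose effect of *tmt2* minus the sucrose effect of the WT, and it contains the age and growth type of *tmt2-S*. *VI1* had a difference of -2.20 on the log2 scale (standard error 0.55, edgeR adjusted p = 0.00885), the log2FC being -0.88 for WT-Suc/WT while *tmt2-S* exceeded *tmt2-L-Suc* by 3.07. *SUS3* had -1.49 (standard error 0.54, adjusted p = 0.048). These 2 of 9 genes (22.2%) passed, where 34.6% of all genes tested did. The call of *SUS3* was lost in 9 of the 12 fits that left out 1 library (adjusted p up to 0.131), and that of *VI1* in 0 of them. Leaving out replicate 1, 2 or 3 of all groups lost the call of *SUS3* each time (adjusted p up to 0.142), and that of *VI1* for replicate 2 (adjusted p = 0.0869). *CWINV1* had -1.22 (standard error 0.59, adjusted p = 0.125) and *HXK1* 0.75 (standard error 0.32, adjusted p = 0.084). Without *tmt2-S* replicate 1, the highest count was reached, with 4 calls: *CWINV1* (-1.54, adjusted p = 0.0394) and *HXK1* (0.90, adjusted p = 0.046) joined *VI1* and *SUS3*. In that fit 38.2% of all genes tested were called, also the highest share among the fits with libraries left out.

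Ordered by mean FPKM over the 4 groups, *CWINV1* ran from *tmt2-S* (80.4 ± 45.0, SD, n = 3) to *tmt2-L-Suc* (21.1 ± 2.01), the WT (12.9 ± 3.09) and WT-Suc (7.92 ± 5.14). Of these neighbours only *tmt2-S* and *tmt2-L-Suc* differed beyond the edgeR threshold. *VI1* ran from *tmt2-S* (72.4 ± 34.4) to the WT (15.0 ± 3.05), *tmt2-L-Suc* (9.59 ± 0.69) and WT-Suc (8.90 ± 4.57), and *SUS3* in the same order from 2.73 ± 0.803 to 0.96 ± 0.419, 0.61 ± 0.132 and 0.593 ± 0.268. For both, only *tmt2-S* and the WT differed as neighbours. *VI2* (106 ± 31.0 in *tmt2-S*, 35.0 ± 17.1 in WT-Suc) and *SPS4F* (52.4 ± 13.7 in *tmt2-S*, 16.7 ± 9.04 in WT-Suc) had that order too, with no neighbours that differed. Both passed between the ends of that order, *tmt2-S* and WT-Suc, as did *CWINV1*, *VI1* and *SUS3*, which makes 5 of the 9 genes where 48.9% of all genes tested passed. *HXK1* was highest in *tmt2-L-Suc* (14.4 ± 1.13) and lowest in WT-Suc (9.06 ± 1.87), again with no neighbours that differed, and neither *SPS1F*, *SPS3F* nor *HXK2* had neighbours that did.

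The genes with levels most like those of 3 of the genes were found by Pearson's r of log2 CPM (counts scaled by library size) over the 12 libraries, which is a description because the libraries of a group are alike. For *SUS3* they were *MSS1* (AT5G26340, r = 0.958), AT2G39518 (r = 0.950) and *DUR3* (AT5G45380, r = 0.943), with mean FPKM of 5.46, 38.8 and 5.99 in *tmt2-S* and at most 1.64 in the other groups. *MSS1* is also known as the hexose transporter STP13, and *DUR3* encodes a urea transporter. For *HXK1* they were AT1G28570 (r = 0.957), *BRS1* (AT4G30610, r = 0.949) and *PID* (AT2G34650, r = 0.943), all highest in *tmt2-L-Suc* and lowest in WT-Suc. For *HXK2*, whose level moved little, they were *MBR1* (AT2G15530), *TLP-3* (AT1G75030) and AT1G72810, with r from 0.853 to 0.895.

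A further 45 loci of the same pathway were listed: the other sucrose synthases, sucrose synthesis, neutral invertase, cell wall invertase, invertase inhibitor, hexokinase, fructokinase and hexose phosphate genes. Of these, 3 (*CWINV2*, *CWINV4* and *FRK5*) were not analysed here. A further 1 was left out because the annotation gives it the name listed for another locus. Of the remaining 41, 33 passed the filter on low counts. In *tmt2-S*/WT, 7 were higher and 5 lower (36.4% called, against 43.3% of all genes tested), with a median log2FC of 0.03. The locus left out by name (AT3G52340, *SPP2* in the annotation) was called higher as well (log2FC 0.65, edgeR adjusted p = 0.0202). The neutral invertases, which split sucrose in the cytosol and organelles, had 4 of 8 tested members higher and 1 lower. *CINV1* (AT1G35580), a cytosolic neutral invertase, had the largest rise among them: its FPKM was 39.1, 58.2 and 83.9 in the WT and 136, 157 and 220 in *tmt2-S*, with no overlap (log2FC 1.51, standard error 0.25, edgeR adjusted p = 0.000425). *FRK7* (AT5G51830), a fructokinase, rose from 1.82 to 2.93 FPKM in the WT to 5.29 to 10.3 FPKM in *tmt2-S* (log2FC 1.72, adjusted p = 0.000224).

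The other members of the same families were also set against the WT, and differences between members were not tested. While *CWINV1* rose in *tmt2-S*, *CWINV3* (AT1G55120), a relative of the cell wall invertases that is known to act on fructans, fell by 2.06 on the log2 scale (adjusted p = 0.000258, edgeR), from 0.72 to 1.24 FPKM in the WT to 0.23 to 0.27 FPKM. While *HXK1* and *HXK2* did not pass, *HXK3* (AT1G47840), the hexokinase of plastids, fell by 1.58 (adjusted p = 0.00131), from 0.81 to 1.52 FPKM to 0.34 to 0.44 FPKM. The hexokinase-like genes *HKL1* (log2FC 0.60, adjusted p = 0.0482) and *HKL2* (log2FC -1.07, adjusted p = 0.00157), named after their values were seen, were called in opposite directions. Of the 3 other sucrose synthases tested, 0 passed in *tmt2-S*/WT, with log2FC from -0.45 to 0.01. Both invertase inhibitors tested, which are proteins that bind and block acid invertases, missed the threshold there as well, with log2FC of 0.46 and 0.68 and edgeR adjusted p of 0.233 and 0.0838.

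**Figure D4:**
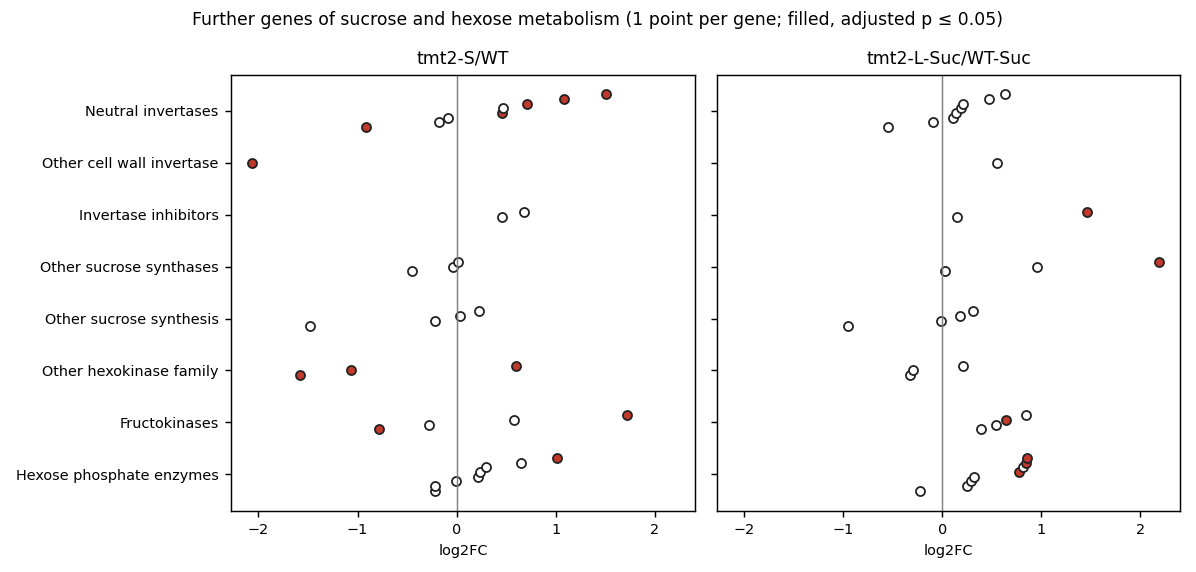
log2FC of the 33 further genes of sucrose and hexose metabolism that were tested, by family, in *tmt2-S*/WT and *tmt2-L-Suc*/WT-Suc; each point is 1 gene and filled points have an adjusted p ≤ 0.05. In *tmt2-S*/WT 7 filled points lie on the higher side and 5 on the lower side, and in *tmt2-L-Suc*/WT-Suc 6 lie on the higher and 0 on the lower side.

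In *tmt2-S*/*tmt2-L-Suc*, 9 of the 33 were higher and 10 lower (57.6%, against 51.5% of all genes tested). *CINV1* was again higher in *tmt2-S* (log2FC 1.89, edgeR adjusted p = 6.63e-05), as was *F2KP* (log2FC 1.36, adjusted p = 1.05e-05), an enzyme that makes and breaks down fructose 2,6-bisphosphate. Lower in *tmt2-S* were *CWINV3* (log2FC -2.28), *SUS6* (-1.76), *HXK3* (-1.71), *C/VIF2* (-1.62) and *SUS5* (-1.38). Of these, *SUS6* passed the filter on low counts only through *tmt2-L-Suc*. In WT-Suc/WT 0 of the 33 passed in edgeR, where 1.47% of all genes tested did.

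Some of the listed genes were highest in the sucrose-fed knockout. *C/VIF2* (AT5G64620) stood at 110, 118 and 110 FPKM in *tmt2-L-Suc*, and no other library exceeded 46.5 FPKM. It was higher than in WT-Suc by 1.46 on the log2 scale (edgeR adjusted p = 0.00601, standard error 0.30) and than in the WT by 2.08 (adjusted p = 0.00186). *SUS6* (AT1G73370), a sucrose synthase known from the phloem, had 0.46 to 0.61 FPKM in *tmt2-L-Suc* and at most 0.21 FPKM elsewhere. Its counts were 27 to 36 in *tmt2-L-Suc* and at most 12 in the other groups. It passed the filter on low counts only through *tmt2-L-Suc*, the group where it was high. Its log2FC was 2.19 against WT-Suc (edgeR adjusted p = 0.00442) and 1.77 against the WT, and these calls are given as a description. *FRK6* (AT1G66430), a fructokinase named after its values were seen, had 42.3 to 52.4 FPKM in *tmt2-L-Suc* and at most 32.4 FPKM elsewhere (log2FC 0.64 against WT-Suc, edgeR adjusted p = 0.018, and 0.74 against the WT, adjusted p = 0.0139). In *tmt2-L-Suc*/WT-Suc 6 of the 33 were higher and 0 lower (18.2%, against 20.5%). In *tmt2-L-Suc*/WT 3 were higher and 1 lower (12.1%, against 11.7%). The lower one was *SPP1* (log2FC -3.08, standard error 0.93, edgeR adjusted p = 0.0485), on 0 to 7 counts in *tmt2-L-Suc*. It had 13 to 27 counts in the WT and passed the filter on low counts only through that group. In the interaction 8 of the 33 had a positive and 4 a negative value (36.4%, against 34.6%).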

How the data were processed

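RNA from above-ground tissue was poly(A) selected and sequenced for 12 libraries, 3 in each of the 4 groups. Groups came from the labels of each library. The authors cleaned the reads, ran Bowtie2 against the TAIR10.1 assembly and passed the alignments to RSEM. The deposited expected counts are not normalized, and between 1.35 and 2.13% of the values of a library are not whole. The FPKM values are those of RSEM, which the authors scaled to the length of the transcript and the mapped fragments. The TPM values, which the authors took from RSEM as a share of all transcripts, and the averages are 12 columns each and were not used here.

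These counts were made whole by rounding and filtered with filterByExpr of edgeR 4.0.16 (R 4.3.3) by group, which left 18506 of 22953 genes. After TMM scaling, 1 quasi-likelihood model with 4 group means was fitted to the 12 libraries, without a replicate block. Each comparison is a contrast with a two-sided F-test, with Benjamini-Hochberg adjustment of p over all genes tested. A gene was called at an adjusted p ≤ 0.05, and a DEG also has |log2FC| ≥ 1.2. The standard error is the size of the log2FC divided by the square root of F. Log2 CPM used a prior count of 2. The biological coefficient of variation was 0.209, and no pair of replicates agreed within counting error. Promoters and positions came from the TAIR10.1 sequence and annotation in RefSeq, to which all 22953 genes were matched. The model was tested on simulated data before use. Other calculations used pandas 2.3.3, numpy 2.4.6 and matplotlib 3.10.9.

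The 9 genes were named in every comparison, and of each further list the DEGs, at most the 3 with the largest |log2FC| per comparison; for *SUS3*, *HXK1* and *HXK2* the 3 most correlated genes were named. In the list of further genes 1 locus was left out because the annotation gives it the name listed for another locus. The genes and the lists were chosen with earlier results of these data known. Alternatives were median-of-ratios scaling, DESeq2 1.42.0, other filters on low counts, a block for the replicate number, models limited to the groups in a contrast, the DEG threshold and leaving out replicates. Leaving out each single library was added after seeing the data.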

Additional observations from a re-analysis of the deposited data

Results flagged for a closer look

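For *VI1* and *SUS3*, the difference between *tmt2-L-Suc* and *tmt2-S* departed from that between WT-Suc and the WT. This was tested directly, as an interaction contrast of the edgeR model. For *VI1*, the effect in *tmt2* minus that in the WT was -2.20 on the log2 scale (standard error 0.55, adjusted p = 0.00885). Its adjusted p ran from 0.00169 to 0.0258 with 1 library left out and was 0.0869 without replicate 2 of all groups. For *SUS3*, the difference was -1.49 (standard error 0.54, adjusted p = 0.048), and with 1 library left out the value lay between -1.80 and -1.18 and the adjusted p between 0.0188 and 0.131. Without replicate 1, 2 or 3 of all groups its adjusted p was 0.0997, 0.0986 and 0.142, so the call was lost each time. It was also lost with at least 10 counts in every library (adjusted p = 0.0503). Both values include the greater age of the *tmt2-S* seedlings and their choice by growth, which cannot be told apart from genotype and sucrose. By the same test 34.6% of all genes passed.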

How the results depend on the processing

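The calls in *tmt2-S*/*tmt2-L-Suc* (4 to 6 genes), those in *tmt2-S*/WT-Suc (4 to 6) and those in *tmt2-S*/WT under all settings but one stayed within 1.5 times the main count. With replicates or libraries left out, the number of called genes ran from 3 to 6 in *tmt2-S*/WT, from 0 to 3 in WT-Suc/WT, from 0 to 3 in *tmt2-L-Suc*/WT-Suc and from 0 to 4 in the interaction. In the same fits the called share of all genes tested was 22.0 to 45.1%, 0 to 7.68% and 3.87 to 27.5% in these comparisons. That share was 31.9 to 53.4% in *tmt2-S*/*tmt2-L-Suc* and 27.7 to 51.3% in *tmt2-S*/WT-Suc. In the interaction 1875 to 7176 genes were called, so the background moved as well. A fit of only the groups compared called 2 genes in *tmt2-L-Suc*/WT and 2 in *tmt2-L-Suc*/WT-Suc, where DESeq2 also called 2. Those fits called 15.3% and 22.5% of all genes tested, and DESeq2 25.2%. With at least 10 counts in every library the interaction called 1 gene, where 34.4% of all genes tested were called, and *SPS3F* was not tested. The causes of these changes were not tested. With the replicate number as a block, the counts were 3 in *tmt2-S*/WT, 6 in *tmt2-S*/*tmt2-L-Suc* (with *SPS3F*, lower in *tmt2-S*, adjusted p = 0.0365), 0 in WT-Suc/WT, 0 in *tmt2-L-Suc*/WT, 1 in *tmt2-L-Suc*/WT-Suc, 2 in the interaction and 5 in *tmt2-S*/WT-Suc. In the same order, the block called 40.3, 48.8, 0.827, 9.16, 17.1, 31.2 and 46.1% of all genes tested. In *tmt2-L-Suc*/WT-Suc the gene called under the block was *HXK1* (adjusted p = 0.0436) and no longer *CWINV1* (adjusted p = 0.0514). Deviations of log2 CPM from the group mean were correlated between libraries of different groups. With the same number, r ran from -0.325 to 0.331, and with different numbers from -0.295 to 0.381. Deviations within a group sum to 0, so these values cannot tell whether libraries with the same number share more than it.

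Of 1307 log2FC of the 9 genes under other settings, 1198 kept their direction and their side of the threshold, 28 passed it newly, 24 no longer passed it and 57 changed sign. None of the 57 was a called value, and the largest was 0.60 in size. Outside fits with libraries left out, only *SUS3* in *tmt2-L-Suc*/WT-Suc changed sign, to 0.00 with median-of-ratios scaling, DESeq2, at least 10 counts in every library and only the groups compared, and to 0.02 with the replicate block. With libraries left out, the log2FC that changed sign ran as follows. In *tmt2-S*/WT it was -0.33 to 0.41 for *SPS3F*, -0.27 to 0.12 for *HXK1* and -0.25 to 0.05 for *HXK2*. In WT-Suc/WT it was -0.37 to 0.05 for *SPS1F*, -0.21 to 0.59 for *SPS3F* and -0.29 to 0.10 for *HXK2*. In *tmt2-L-Suc*/WT it was -0.24 to 0.16 for *SPS1F* and -0.12 to 0.14 for *HXK2*. In *tmt2-L-Suc*/WT-Suc it was -0.18 to 0.93 for *VI2*, -0.15 to 0.69 for *VI1*, -0.16 to 0.36 for *SPS1F*, -0.60 to 0.89 for *SPS4F*, -0.32 to 0.29 for *SUS3* and -0.18 to 0.32 for *HXK2*. In *tmt2-S*/WT-Suc it was -0.32 to 0.16 for *SPS3F* and -0.33 to 0.24 for *HXK2*. *SPS3F* had the lowest counts of the 9 genes, 5 to 46 per library.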
